A study of Homo sapiens with 12 samples.

Results

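The genes described here are the 7 human cyclin-dependent kinase (CDK) inhibitor genes of the CIP/KIP and INK4 families. They were taken by gene identifier, with the version removed, from 3 tables of RSEM counts that list 57820 genes. CIP/KIP holds CDKN1A, CDKN1B and CDKN1C, and INK4 holds CDKN2A, CDKN2B, CDKN2C and CDKN2D. The files give them as ENSG00000124762.9, ENSG00000111276.6, ENSG00000129757.8, ENSG00000147889.12, ENSG00000147883.9, ENSG00000123080.6 and ENSG00000129355.6 in that order, and they lie on chromosomes 6, 12, 11, 9, 9, 1 and 19. All 7 were found, and all 7 were among the 15750 genes with enough counts to be tested. The RNA came from G401, a rhabdoid tumour cell line whose genotype the labels give as SMARCB1(-/-), so every group lacks the chromosomal source of this SWI/SNF core subunit. Per the labels, doxycycline induced GFP, the control protein, or SMARCB1, and each was combined with DMSO, the solvent, or with dBRD9-A, which degrades BRD9, for 24 hours. The 4 groups were GFP in DMSO, GFP in dBRD9-A, SMARCB1 in DMSO and SMARCB1 in dBRD9-A, with 3 libraries each. All come from 1 cell line, the doses and the length of the induction are not given in the sources used here, and nothing states that replicates were separate cultures, so p-values measure only the spread between these libraries.

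CDK inhibitors are small proteins that hold back the cell cycle in G1. INK4 proteins bind CDK4 and CDK6 and keep them from D-type cyclins, which leaves the RB proteins able to repress E2F target genes. CIP/KIP proteins bind complexes of cyclins with CDKs more widely and block CDK2 with cyclin E or A, although CDKN1A and CDKN1B also help cyclin D to assemble with CDK4. In rhabdoid tumour cells, return of SMARCB1 is known for arrest in G1 and for induction of the CDKN2A product p16, and the INK4 locus is a classical target of Polycomb repression. CDKN2A also encodes ARF from another first exon, and a gene count does not tell the transcripts apart.

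Stretches upstream of 4 members are shown because they belong to the gene that fell most with SMARCB1 (CDKN1A), to the neighbouring genes on chromosome 9 that were both raised (CDKN2A and CDKN2B) and to the gene that was raised by dBRD9-A (CDKN2C). They are RefSeq sequences on GRCh38.p14, on the strand of the gene, cut where GENCODE 29 begins an exon of the same gene. Further starts of CDKN2A and CDKN2C are not shown. The CDKN2A stretch was not assigned to p16 or to ARF, which start from different first exons. Capitals mark the GC box (GGGCGG), the CCAAT box (CCAAT) and the E-box (CACGTG) on either strand.
CDKN1A, chr6:36678464-36678657, plus strand: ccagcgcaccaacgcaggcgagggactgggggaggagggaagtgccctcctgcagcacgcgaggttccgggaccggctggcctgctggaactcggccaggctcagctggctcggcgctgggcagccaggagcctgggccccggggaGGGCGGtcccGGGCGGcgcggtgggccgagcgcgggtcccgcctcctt
CDKN2A, upstream start, chr9:21995325-21995574, minus strand: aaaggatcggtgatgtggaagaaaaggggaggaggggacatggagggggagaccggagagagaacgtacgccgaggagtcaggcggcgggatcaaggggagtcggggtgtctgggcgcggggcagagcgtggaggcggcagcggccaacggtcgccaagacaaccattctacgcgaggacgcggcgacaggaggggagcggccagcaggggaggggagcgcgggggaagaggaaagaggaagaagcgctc
CDKN2B, chr9:22009364-22009555, minus strand: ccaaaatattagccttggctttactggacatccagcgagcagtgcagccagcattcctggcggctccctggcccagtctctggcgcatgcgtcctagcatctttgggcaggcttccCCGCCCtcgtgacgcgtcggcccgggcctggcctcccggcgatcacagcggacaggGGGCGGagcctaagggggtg
CDKN2C, upstream start, chr1:50960495-50960744, plus strand: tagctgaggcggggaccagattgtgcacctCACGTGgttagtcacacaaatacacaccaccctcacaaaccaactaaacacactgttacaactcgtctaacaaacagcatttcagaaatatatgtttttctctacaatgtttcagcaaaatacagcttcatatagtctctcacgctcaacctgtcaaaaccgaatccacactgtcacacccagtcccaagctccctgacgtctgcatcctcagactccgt
The promoter table matched 6 of the 7 members with 9 starts, and motifs were counted in the 250 bases before each start. A GC box lay in 7 of the 9 windows, against 42.6% of all 35116 windows of that length in the table. CDKN1A had 4 matches, 2 of them in the stretch shown, CDKN2B had 2, and the upstream start of CDKN2A had 0. A second start of CDKN2C had 5 GC boxes and 2 matches to an E2F-like motif, spelled TTCGCGC in its first form, TTGGCGC in the second, TTCCCGC in the next and TTGCCGC in the last, and found in 10.9% of all windows. All motifs were searched on both strands, and matches of different motifs were counted separately where they overlap. TATAAA was in 0 of the 9 windows and in 10.7% of all, CCAAT in 3 and in 32% of all, CACGTG in 2 and in 6.34% of all, and CAGACA, a SMAD-like motif, in 2 and in 13.6% of all. These matches describe letters and say nothing of bound factors.

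Libraries held 34.97 to 58.54 megacounts assigned to genes. SMARCB1 had 0 to 2 counts in the 6 GFP libraries and at least 53033 counts in the 6 SMARCB1 libraries, as the labels state. Among the SMARCB1 libraries it was lower in dBRD9-A, at 1307 ± 27 CPM against 1875 ± 59.4 CPM in DMSO (SD, n = 3, log2 fold change -0.52, SE 0.03, adjusted p 4.95e-08 by edgeR). BRD9 mRNA, which a protein degrader need not alter, was 38.3 to 47.5 CPM (counts per megacount of the library) as group means. It was higher with SMARCB1 in DMSO (log2 fold change 0.29, SE 0.04, adjusted p 1.64e-05 by edgeR). With dBRD9-A it was not called in GFP cells (0.10, adjusted p 0.146, but 0.46 with spike-in scaling) or in SMARCB1 cells (0.02, adjusted p 0.922). BRD9 protein was not measured in these RNA libraries. VIM, a mesenchymal marker, had 1268 to 2310 CPM as group means, and FN1 had at most 12 counts. Among markers of other cell types, PTPRC and CD3E were at 0 in every library, and RBFOX3 and KRT5 had at most 2 counts. EPCAM (14 to 44 counts in GFP and 0 to 3 in SMARCB1 libraries), CDH1 (0 to 4 and 14 to 37), VWF (0 to 5 and 22 to 50) and CDH5 (0 and 3 to 10) were low and differed between the cell states, and their part in the results was not tested. GFAP had 234 counts in SMARCB1 in DMSO replicate 1 and 0 to 1 in the other libraries. Without that library the 7 members kept their calls and directions for SMARCB1 against GFP in DMSO, with log2 fold changes from -0.73 for CDKN1A to 3.06 for CDKN2B.

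CDKN1A and CDKN1B made up most of the inhibitor mRNA in all 4 groups, and CDKN2B was the lowest in each. On the scale of CPM per kilobase of exon, GFP cells in DMSO had 47.1 ± 1.24 for CDKN1A, 28.5 ± 0.849 for CDKN1B and 10.7 ± 0.652 for CDKN2C (SD, n = 3). CDKN2D followed with 2.19 ± 0.086, CDKN1C with 0.274 ± 0.0344, CDKN2A with 0.208 ± 0.0385 and CDKN2B with 0.0657 ± 0.0127 (SD, n = 3). In this order CDKN1C and CDKN2A overlapped in their libraries and the other neighbours did not. The sum of the 7 levels was 89 ± 2.35 in GFP cells in DMSO and 92.2 ± 2.99 in dBRD9-A, and 74.8 ± 1.22 and 74.8 ± 3.2 in SMARCB1 cells (SD, n = 3). These sums use TMM scaling, and sums under spike-in scaling are not given here. With dBRD9-A in GFP cells, spike-in scaling put CDKN1A and CDKN1B at log2 fold changes of 0.27 and 0.27, against -0.10 and -0.09. With SMARCB1 in DMSO it put them at -0.56 and 0.02, against -0.73 and -0.15. Differences between the sums therefore depend on the scaling. CDKN1A provided 52.9% ± 0.483 of the sum in GFP cells in DMSO and 38% ± 1.57 in SMARCB1 cells in DMSO (SD, n = 3). CDKN2C provided 12.1% ± 0.647 and 19.7% ± 0.446, and 20% ± 0.49 in GFP cells in dBRD9-A (SD, n = 3). In SMARCB1 cells in DMSO the order was CDKN1A, CDKN1B, CDKN2C, CDKN2D, CDKN1C, CDKN2A and CDKN2B, and only CDKN2A and CDKN2B overlapped. With dBRD9-A the SMARCB1 order was the same, and in GFP cells CDKN2A (0.254 ± 0.0447) and CDKN1C (0.223 ± 0.00547) overlapped and changed places (SD, n = 3). Lengths are of all exons in GENCODE 29, so a gene with long unused exons is understated.

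**Figure D1:**
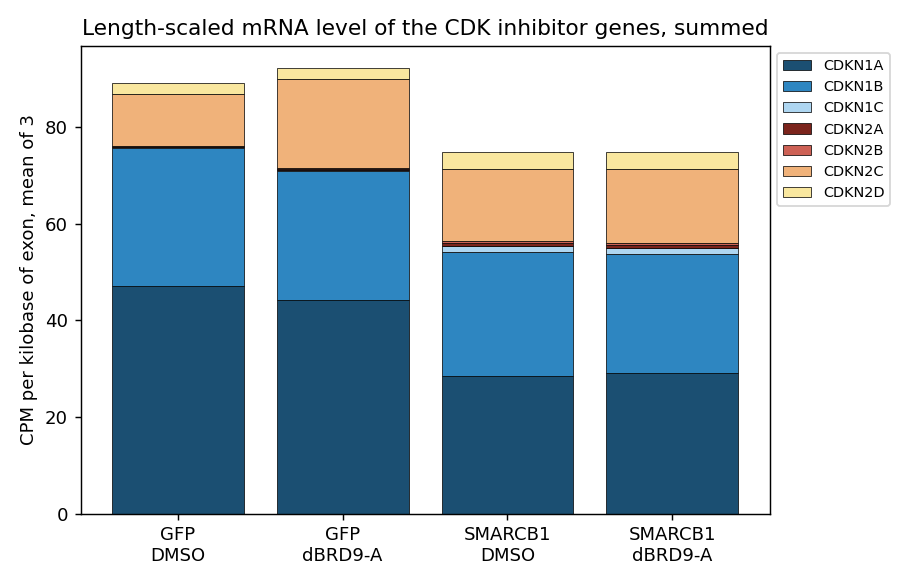
Stacked bars of the mean level of each CDK inhibitor gene in the 4 groups, in CPM per kilobase of exon (3 libraries per group, TMM-scaled). The sum is 89 and 92.2 in GFP cells and 74.8 in both SMARCB1 groups, and CDKN1A and CDKN1B form the largest blocks. Differences between the sums depend on the scaling.

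SMARCB1 in DMSO was compared with GFP in DMSO to ask what return of the missing subunit does to the inhibitors. All 7 members changed, 5 higher and 2 lower, at an adjusted p under 0.05. Of all genes tested, 65% passed that threshold, 33.5% higher and 31.6% lower, so a call by itself is common here. CDKN2B, CDKN1C and CDKN2A had the largest increases, from 12 to 63 counts per GFP library in DMSO, and CDKN1A, the most abundant member, fell. The median log2 fold change of the 7 was 0.71, against -0.005 over all genes. In bulk RNA, fewer cells that express a gene and less RNA per cell cannot be told apart.

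Among the CIP/KIP genes, CDKN1A, the p21 inhibitor of CDK2 complexes, had 141.7, 141.3 and 148 CPM in the GFP libraries and 86.3, 89.8 and 84 CPM in the SMARCB1 libraries. The lowest GFP library lay above the highest SMARCB1 library. The fall was 1.66-fold, or -0.73 as log2 (SE 0.04, adjusted p 4.44e-11). CDKN1B, the p27 inhibitor that is controlled largely by protein turnover, had 78.9, 78.4 and 82.7 CPM in GFP and 75.2, 68.2 and 72.8 CPM in SMARCB1 libraries. Its libraries did not overlap either, but the log2 difference was small, at -0.15 (SE 0.04, adjusted p 0.0021), and became 0.02 (adjusted p 0.83) when libraries were scaled to the spike-in RNAs. CDKN1C, the imprinted p57 inhibitor, moved the other way. It had 0.71, 0.582 and 0.743 CPM in GFP and 3.09, 2.72 and 3.44 CPM in SMARCB1 libraries, from 24 to 43 and from 108 to 200 counts. Each SMARCB1 library was above each GFP library, and the rise was 4.51-fold (log2 fold change 2.17, SE 0.17, adjusted p 2.51e-09).

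Each of the 4 INK4 genes was higher with SMARCB1, and with spike-in scaling each was still called higher. CDKN2B, the p15 inhibitor that TGF-beta can induce, had 0.302, 0.291 and 0.207 CPM in GFP libraries (12 to 17 counts) and 2.25, 1.99 and 2.43 CPM in SMARCB1 libraries (79 to 141 counts). With no overlap, this was a rise of 8.38-fold (log2 fold change 3.07, SE 0.19, adjusted p 1.31e-10), and 4.48% of genes tested had a larger absolute change. CDKN2A, the source of p16 and ARF, had 0.781, 0.824 and 1.09 CPM in GFP and 2.96, 2.45 and 2.51 CPM in SMARCB1 libraries. These also stood apart, a rise of 2.9-fold (log2 fold change 1.54, SE 0.17, adjusted p 5.12e-07). CDKN2D, the p19 inhibitor of the INK4 family, had 3.45, 3.2 and 3.25 CPM in GFP and 5.31, 5.85 and 5.14 CPM in SMARCB1 libraries, 1.64-fold higher (log2 fold change 0.71, SE 0.10, adjusted p 9.93e-06). CDKN2C, the p18 inhibitor, had 37.6, 33.3 and 35.9 CPM in GFP and 50.4, 47.2 and 49.4 CPM in SMARCB1 libraries. It was the member with the smallest INK4 rise, 1.37-fold (log2 fold change 0.46, SE 0.05, adjusted p 4.57e-07), and again no library of one group reached the other. Even after their rise, CDKN2A and CDKN2B stayed below CDKN2C in CPM per kilobase, at 0.609 ± 0.0644 and 0.548 ± 0.0539 against 14.8 ± 0.496 (SD, n = 3). CDKN2A and CDKN2B overlap CDKN2B-AS1 (1 to 10 counts per library) and AL359922.1 (0 to 21 counts) on the opposite strand in GENCODE 29, and whether counting used the strand is not given in the sources used here. Expected counts of the members were whole, to within 0.005 counts, in 84 of 84 values.

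**Figure D2:**
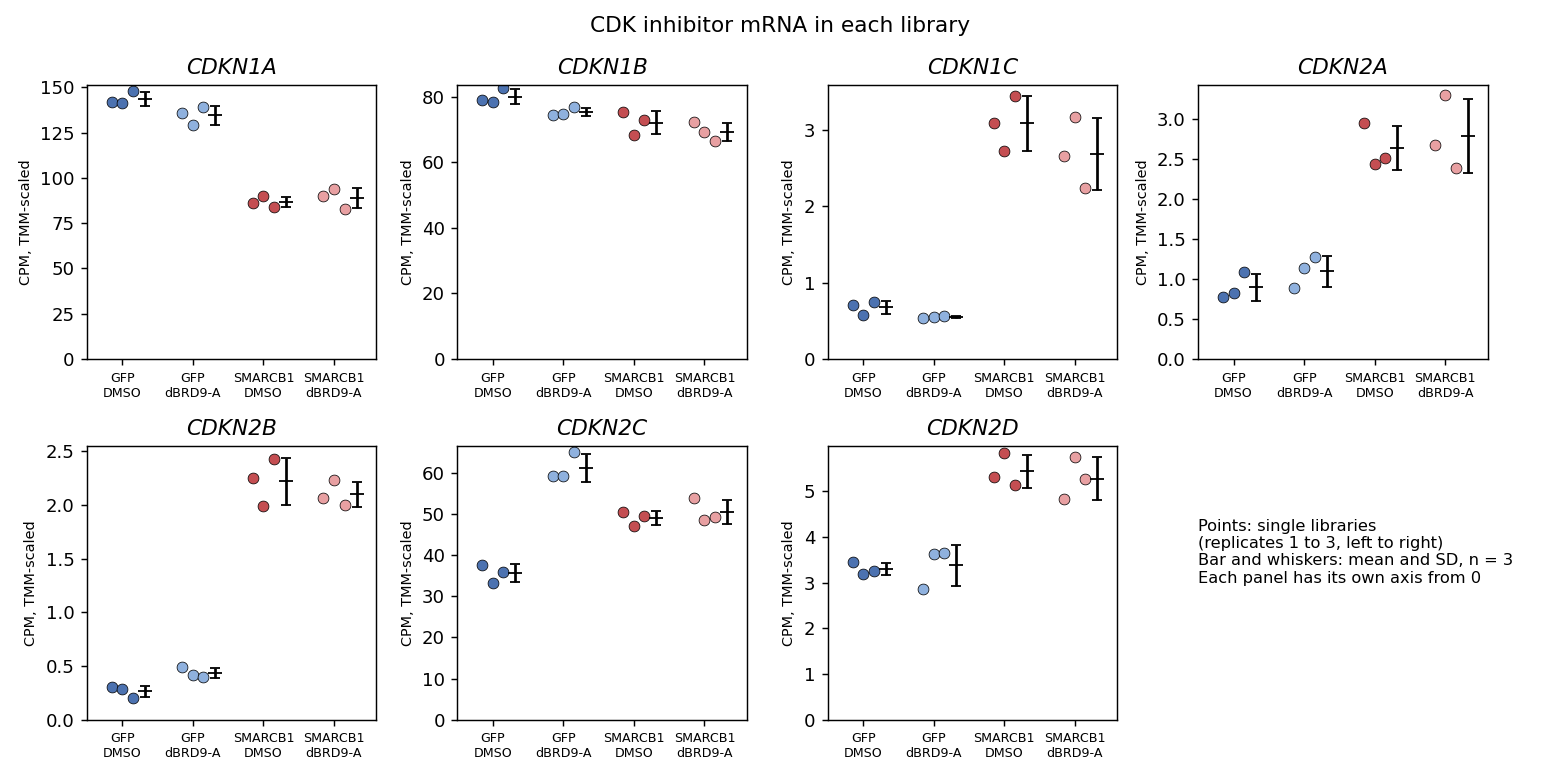
Level of each CDK inhibitor gene in each of the 12 libraries, in TMM-scaled CPM on an axis from 0 per panel, with the mean and SD of 3 replicates beside the points. CDKN1C, CDKN2A, CDKN2B and CDKN2D are higher in all SMARCB1 libraries, CDKN1A is lower in them, and CDKN2C is highest in GFP cells in dBRD9-A, from 59.1 to 65 CPM.

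The same comparison was made in dBRD9-A, with other libraries on both sides. All 7 members changed again, where 63.3% of all genes did (33% higher and 30.4% lower), but here 4 were higher and 3 lower. CDKN1C (log2 fold change 2.29, SE 0.18), CDKN2B (2.25, SE 0.18), CDKN2A (1.37, SE 0.18) and CDKN2D (0.66, SE 0.11) were higher with SMARCB1, with adjusted p of 6.37e-09, 6.94e-09, 2.69e-06 and 4.11e-05. CDKN1A had a log2 difference of -0.60 (SE 0.04, adjusted p 8.99e-10). CDKN1B had -0.12 (SE 0.04, adjusted p 0.0116), and the call was lost when SMARCB1 in dBRD9-A replicate 3 was left out (-0.10, adjusted p 0.0608). CDKN2C was the member whose sign differed from the DMSO comparison. Its libraries had 59.1, 59.2 and 65 CPM in GFP and 53.9, 48.4 and 49.1 CPM in SMARCB1 cells. All GFP libraries were the higher ones here, and the log2 difference was -0.28 (SE 0.05, adjusted p 0.000124). Spike-in scaling kept these 7 calls and their directions, around a shift of all genes of -0.32.

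Treatment with dBRD9-A in cells without SMARCB1 was tested in GFP libraries, the state in which the study's title places a dependency on BRD9. CDKN2C was the 1 member called, where 15.9% of all genes were called (7.43% higher and 8.47% lower). From 37.6, 33.3 and 35.9 CPM in DMSO it reached 59.1, 59.2 and 65 CPM in dBRD9-A. The groups were far apart for this gene, a rise of 1.71-fold (log2 fold change 0.78, SE 0.05, adjusted p 1.1e-08), and 4.04% of genes had a larger absolute change. With spike-in scaling the value was 1.14, against a shift of 0.36 for the median of all genes. SMARCB1 in DMSO gave the same gene 0.46, and the comparisons share the GFP libraries in DMSO.

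The other 6 members did not pass the threshold in GFP cells. CDKN2B had 0.491, 0.421 and 0.395 CPM in dBRD9-A, above the 0.207 to 0.302 CPM in DMSO, but with 14 to 21 counts per library. Its log2 fold change was 0.73 (95% interval 0.19 to 1.26, adjusted p 0.0781). CDKN1A had 135.6, 128.9 and 139 CPM in dBRD9-A, all below the DMSO libraries, with a log2 fold change of -0.10 (95% interval -0.18 to -0.01, adjusted p 0.134). This last value was called lower without the low-count filter (adjusted p 0.0332) and higher with spike-in scaling (0.27, adjusted p 0.000743), so its direction depends on the scaling. CDKN1B (-0.09, interval -0.17 to -0.01), CDKN1C (-0.31, interval -0.79 to 0.16), CDKN2A (0.27, interval -0.17 to 0.70) and CDKN2D (0.02, interval -0.21 to 0.26) had adjusted p from 0.141 to 0.921. Spike-in RNAs made up 1.27% to 1.3% of counts in GFP libraries in DMSO and 0.963% to 1.06% in dBRD9-A, against 1.09% to 1.21% and 1.18% to 1.29% in SMARCB1 libraries. Under spike-in scaling 6 of the 7 were called higher and 0 lower, as were 11083 and 227 of all genes. Relative to the shift of 0.36, CDKN2C, CDKN2B and CDKN2A lay above it, CDKN2D near it at 0.39 and the CIP/KIP genes below it, at 0.27, 0.27 and 0.04.

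**Figure D3:**
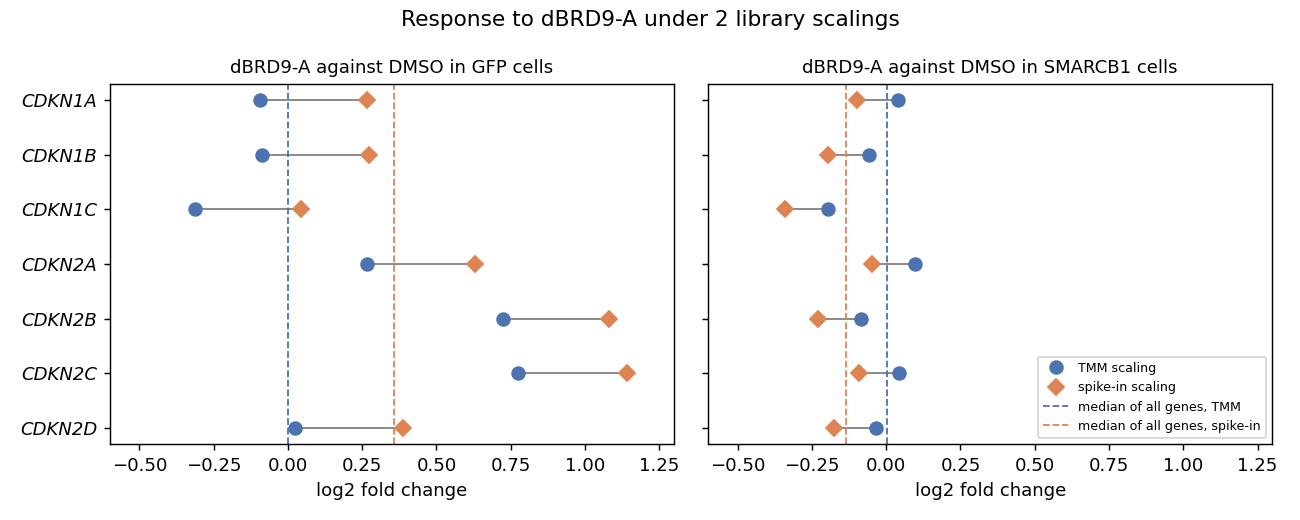
Log2 fold changes of the CDK inhibitor genes with dBRD9-A in GFP cells and in SMARCB1 cells, under TMM scaling (circles) and spike-in scaling (diamonds), with dashed lines at the median of all genes under each. In GFP cells the spike-in values lie about 0.36 to the right and CDKN2C is the rightmost member under both scalings, while in SMARCB1 cells the TMM values lie between -0.20 and 0.10.

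In SMARCB1 cells dBRD9-A called 0 of the 7 members by edgeR's quasi-likelihood test, 0 by an unadjusted p under 0.05 and 0 by DESeq2, where 1.93% of all genes were called (0.679% higher and 1.25% lower). CDKN2C had 50.4, 47.2 and 49.4 CPM in DMSO and 53.9, 48.4 and 49.1 CPM in dBRD9-A. These libraries overlapped, with a log2 fold change of 0.04 (95% interval -0.07 to 0.15, adjusted p 0.816). CDKN2B had 2.25, 1.99 and 2.43 CPM in DMSO and 2.06, 2.23 and 2 CPM in dBRD9-A, also overlapping (-0.09, interval -0.38 to 0.21). For CDKN1A the values were 86.3, 89.8 and 84 CPM in DMSO and 90, 93.8 and 82.8 CPM in dBRD9-A (0.04, interval -0.05 to 0.13). CDKN1B (interval -0.14 to 0.02), CDKN1C (-0.49 to 0.09), CDKN2A (-0.23 to 0.42) and CDKN2D (-0.24 to 0.18) overlapped between the treatments too, and the intervals of the low genes leave room for changes that this depth could not show.

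The interaction tested whether the response to dBRD9-A differed between the cell states. Like both comparisons above that use SMARCB1 libraries in dBRD9-A, it rests on SMARCB1 mRNA that was 1.43-fold lower there than in DMSO, whose part in the results was not tested. It was called for CDKN2C alone among the members, where 3.8% of all genes were called (2.15% higher and 1.65% lower in SMARCB1 than in GFP cells). The response of CDKN2C was smaller in SMARCB1 cells by -0.73 on the log2 scale (SE 0.07, 95% interval -0.89 to -0.58, adjusted p 8e-06). With spike-in scaling the difference was -1.23, against -0.49 for the median of all genes. CDKN2B had -0.81 (interval -1.42 to -0.20, adjusted p 0.155), and CDKN1A, CDKN1B, CDKN1C, CDKN2A and CDKN2D had values from -0.17 to 0.13 with adjusted p from 0.274 to 0.91. Spike-in scaling called 6 of the 7, all with a negative difference, as it did for 11204 of all genes.

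**Figure D4:**
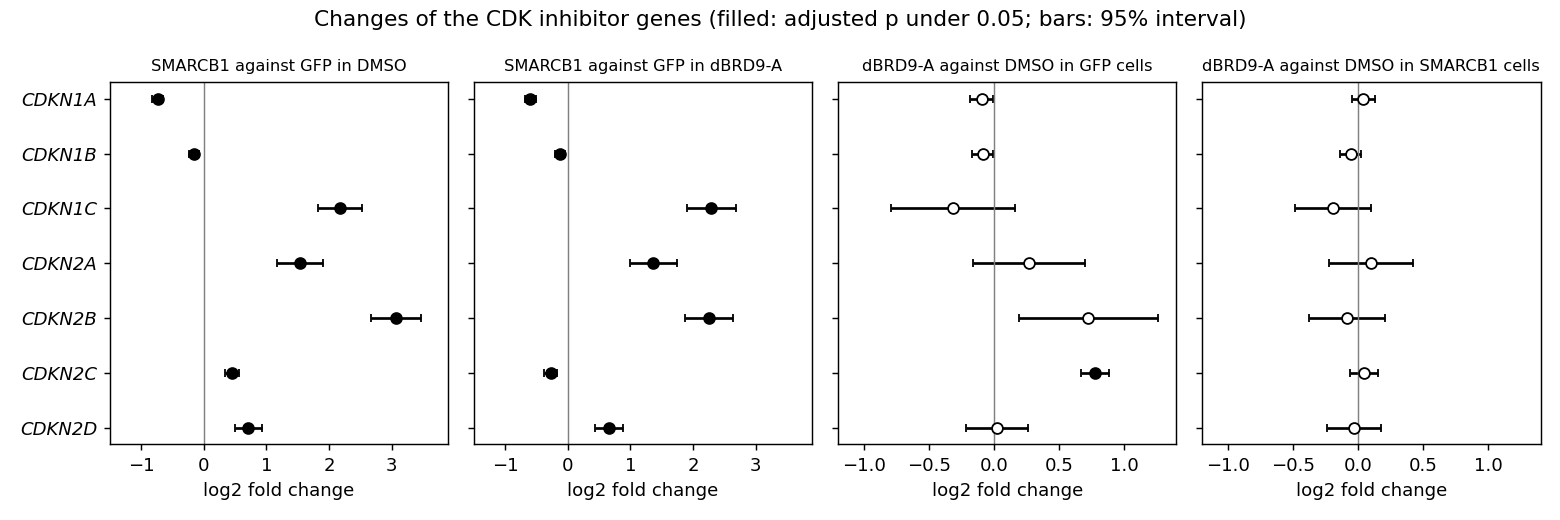
Log2 fold changes of the CDK inhibitor genes in 4 comparisons, with 95% intervals, filled where the adjusted p is under 0.05. All 7 points are filled in both comparisons of SMARCB1 with GFP, CDKN2C alone is filled for dBRD9-A in GFP cells, and none is filled in SMARCB1 cells, where CDKN2C sits at 0.04.

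Genes that the inhibitors act on were examined next. Their counts are to be read against all genes tested, of which SMARCB1 in DMSO called 33.5% higher and 31.6% lower (6831 and 2581 genes with spike-in scaling). Of 11 cyclins and kinases that the inhibitors bind, 10 were tested, and SMARCB1 in DMSO raised 5 and lowered 4 (5 and 1 with spike-in scaling), with a median log2 fold change of 0.05. CCND2, a D-type cyclin, went from 10 to 15 counts per library to 832 to 1338, from 0.249 ± 0.0999 to 23.2 ± 1.47 CPM (SD, n = 3, log2 fold change 6.59, SE 0.16, adjusted p 1.65e-16). CCNE2 rose by 0.64 (SE 0.05), while CCNE1 and CCND1 fell by -0.43 (SE 0.04) and -0.31 (SE 0.04) on the log2 scale. All 3 RB family genes were called, RB1 higher by 0.49 (SE 0.03) and RBL1 by 0.25 (SE 0.04), and RBL2 lower by -0.18 (SE 0.04), which was -0.01 with spike-in scaling. Of 21 E2F targets of the G1/S transition, 8 were higher and 6 lower (13 and 2 with spike-in scaling), with a median of 0.02. Their largest changes were CCNE2 and TK1 (0.55, SE 0.04) upwards and E2F2 (-0.68, SE 0.04) and CCNE1 downwards.

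No proliferation marker was called lower with SMARCB1 in DMSO under TMM or spike-in scaling. Of 10 such genes 8 were higher and 0 lower (10 and 0 with spike-in scaling), beside 33.5% and 31.6% of all genes, with a median of 0.20. MKI67 and PLK1 rose most among genes of at least 50 counts, by 0.67 (SE 0.13) and 0.47 (SE 0.03). In dBRD9-A the same comparison called 7 higher and 0 lower, but 0 and 6 with spike-in scaling, so that direction depends on the scaling. Of all 15750 genes it called 33% higher and 30.4% lower, and 2129 higher and 9046 lower with spike-in scaling. In GFP cells, 3 of the 10 were higher in dBRD9-A, and 10 of 10 with spike-in scaling, where 7.43% of all genes were higher (11083 genes with spike-in scaling). PLK1 had 0.14 (SE 0.03) and AURKB 0.13 (SE 0.03). Under TMM scaling dBRD9-A called CDK2 alone of the 10 cyclins and kinases in GFP cells, higher by 0.18 (SE 0.03), while spike-in scaling called 9 of the 10 higher. In SMARCB1 cells CDK2 had 0.12 (SE 0.03, adjusted p 0.0415), which was not called with RLE size factors and was -0.02 with spike-in scaling. RBL2 was the 1 RB family gene called with dBRD9-A in GFP cells, at -0.12 (SE 0.04, adjusted p 0.0364, but 0.24 with spike-in scaling). Of the 21 E2F targets it called 3 lower in GFP cells, beside 8.47% of all genes, but 0 lower and 20 higher with spike-in scaling. E2F2 was called lower in GFP and in SMARCB1 cells, by -0.21 (SE 0.04, but 0.14 with spike-in scaling) and -0.20 (SE 0.04).

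Regulators of CDKN1B were listed too. Of 9 genes of p27 turnover and FOXO factors, SMARCB1 in DMSO raised 5 and lowered 2 (6 and 0 with spike-in scaling), beside 33.5% and 31.6% of all genes. FOXO4 and FOXO3, which can induce CDKN1B, rose by 1.07 (SE 0.13) and 0.71 (SE 0.03), while CDKN1B itself was at -0.15 (0.02 with spike-in scaling). The other genes called higher were of p27 turnover. CUL1 and FOXO1 were the 2 called lower, at -0.15 (SE 0.03) and -0.12 (SE 0.05, adjusted p 0.0403 by edgeR). With spike-in scaling CUL1 was at 0.02 and FOXO1 at 0.05. In GFP cells dBRD9-A called FOXO1 (-0.16, SE 0.05, adjusted p 0.0402) and SKP2 (-0.09, SE 0.03, adjusted p 0.0356) lower, where 8.47% of all genes were lower. With spike-in scaling these 2 genes were at 0.20 and 0.27.

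Polycomb subunits and other repressors linked to the INK4 locus were listed last. Of 13 genes 12 were found and tested, 6 higher and 2 lower with SMARCB1 in DMSO (9 and 0 with spike-in scaling), with a median of 0.17, where 33.5% of all genes were higher and 31.6% lower. TBX2, a repressor of CDKN2A, rose by 1.29 (SE 0.17, adjusted p 2.56e-06) at a low level, from 1.61 ± 0.134 to 3.93 ± 0.564 CPM (SD, n = 3), and ID1 rose by 0.43 (SE 0.06). BMI1, a Polycomb subunit, was at -0.15 (SE 0.03) and EZH1 at -0.22 (SE 0.07), and spike-in scaling gave 0.02 and -0.05. Treatment of GFP cells with dBRD9-A gave higher levels of ID1 (0.40, SE 0.06) and SUZ12 (0.12, SE 0.04) and a lower level of EZH1 (-0.26, SE 0.08, but 0.10 with spike-in scaling). Of all genes, 7.43% were higher and 8.47% lower there. The interaction was called for ID1 (-0.32, SE 0.08, adjusted p 0.0378), where 1.65% of all genes were called with a negative difference.

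**Figure D5:**
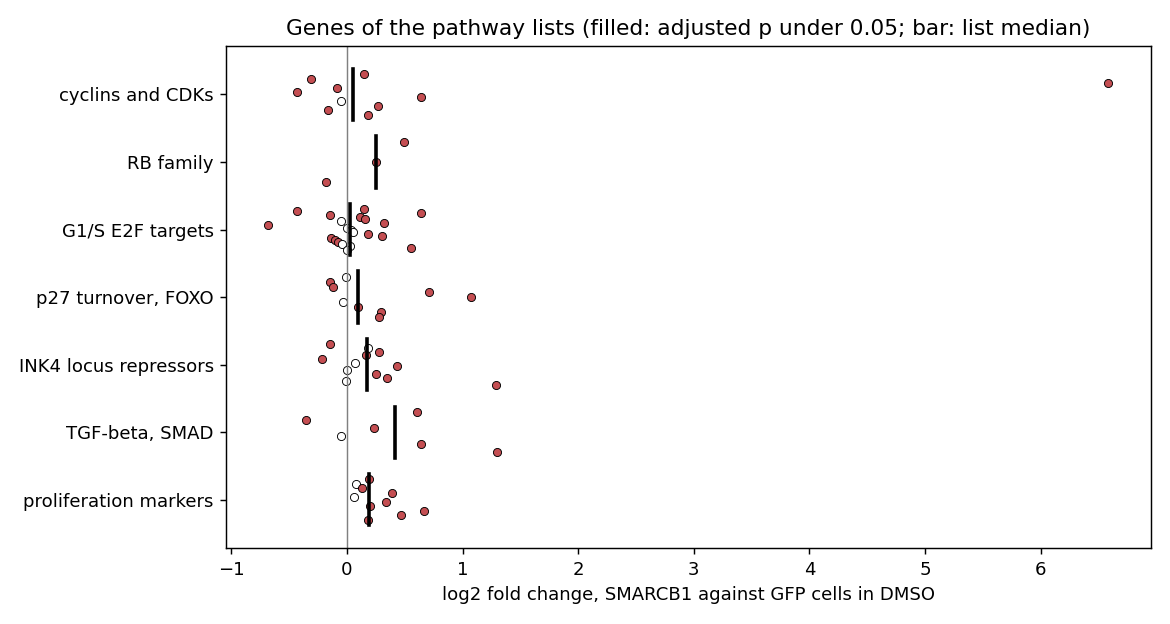
Log2 fold change of each tested gene of 7 pathway lists for SMARCB1 against GFP cells in DMSO, filled where the adjusted p is under 0.05, with a bar at the list median. The medians shown run from 0.02 for the E2F targets to 0.42 for the TGF-beta list, not every list is plotted, and the point far to the right is CCND2.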

How the data were processed

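RNA was measured in 12 libraries of G401 cells, made with a stranded mRNA kit per the labels' protocols. Each deposited table gives expected counts, 1 row per gene. STAR, RSEM 1.3.1, DESeq2 and the builds GRCh37 and hg19 are named in the submitters' processing notes with no role or order, and the annotation, filters and use of strand are not given in the sources used here. Libraries shared between the 3 tables had identical values, and 40 spike-in identifiers were kept out of library sizes (0.963% to 1.3% of counts). Symbols matched 51996 of 57820 identifiers, and exon lengths came from GENCODE 29, matched without version, so no coordinates of the tables are given.

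Expected counts were rounded and tested with edgeR 4.0.16 in R 4.3.3: filterByExpr with a minimum count of 10 (15750 genes kept), TMM scaling (factors 0.977 to 1.02), 1 coefficient per group over all 12 libraries, quasi-likelihood F tests and Benjamini-Hochberg adjustment over all genes, with a threshold of 0.05. SEs come from the F statistic, CPM uses TMM-scaled library sizes, and a ± is an SD over 3 replicates. A count of 3, the floor, was 0.0516 to 0.0847 CPM, and it covers counting error only. The functions were tested on simulated data. No replicate pair agreed within counting noise (chi-square per degree of freedom 3.02 to 26.2), so each library counted as 1 sample. This spread does not show that the libraries were separate cultures. The pairs had 11, 7.7 and 26.2 in SMARCB1 in dBRD9-A, against 3.6, 3.02 and 3.47 in GFP in dBRD9-A. They ran from 3.83 to 7.68 in GFP in DMSO and from 4 to 8.03 in SMARCB1 in DMSO. Alternatives were RLE size factors, spike-in scaling, DESeq2 1.42.0, no low-count filter, the compared groups alone, a replicate block and leaving out each library. The members and lists were chosen with earlier results of these data known, so no p is given over a list. Named list genes are those called with a mean of at least 50 counts, the 2 largest rises and 2 largest falls per list and comparison. Genes of like pattern are the 2 with the smallest root mean square difference of gene-centred log2 CPM (prior count 2). Of the lists, PCGF2 and PECAM1 were not analysed here, and some listed genes are not reported here.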

Additional observations from a re-analysis of the deposited data

Results flagged for a closer look

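The response of CDKN2C to dBRD9-A differed between the cell states by the interaction test, with a difference of -0.73 on the log2 scale between SMARCB1 and GFP cells (adjusted p 8e-06 by edgeR). CDKN2C was higher in dBRD9-A than in DMSO in all 3 GFP libraries, and the SMARCB1 libraries overlapped.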

How the results depend on the processing

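The count of members changed was 7 for SMARCB1 against GFP in DMSO in each alternative except spike-in scaling, which called 6, and 7 in dBRD9-A except for 6 in 1 of the 12 fits without a library. CDKN2C kept its call in GFP cells and in the interaction in each alternative run, with 0.73 to 0.82 and -0.78 to -0.69 over the fits without a library. Spike-in scaling moved the count for dBRD9-A in GFP cells from 1 to 6 members (from 2504 to 11310 genes) and for the interaction from 1 to 6 members (from 598 to 11270 genes), and for all genes with dBRD9-A in SMARCB1 cells from 304 to 873. With dBRD9-A in GFP cells the median gene was at 0.36 under spike-in scaling and at 0 under TMM scaling. Spike-in scaling follows the measured share of spike-in RNAs, and the source of this shift was not tested. It gave opposite signs for CDKN1B with SMARCB1 in DMSO (0.02), for CDKN1A (0.27), CDKN1B (0.27) and CDKN1C (0.045) with dBRD9-A in GFP cells, for CDKN1A (-0.098), CDKN2A (-0.047) and CDKN2C (-0.093) in SMARCB1 cells, and for the interactions of CDKN1A (-0.36), CDKN1B (-0.47) and CDKN1C (-0.39). Without the low-count filter 2 members were called with dBRD9-A in GFP cells, CDKN1A being the second, and 652 genes in SMARCB1 cells. With the compared groups alone 156 genes were called there, where fits without a library gave 171 to 423, the lowest without SMARCB1 in DMSO replicate 3. Without SMARCB1 in DMSO replicate 2 and SMARCB1 in dBRD9-A replicate 3 they were 174 and 195. Fits without a library turned the sign of uncalled values near 0: CDKN2D in GFP cells (-0.034 to 0.14), CDKN2D (-0.103 to 0.026), CDKN2C (-0.006 to 0.072), CDKN1A (-0.004 to 0.087) and CDKN2A (-0.05 to 0.198) in SMARCB1 cells, and the interactions of CDKN1B (-0.007 to 0.059), CDKN2D (-0.172 to 0.001) and CDKN1C (-0.03 to 0.234). The cause of these changes was not tested. Same-numbered libraries did not deviate together (0 of 18 correlations above 0.1, from -0.056 to 0.061, and 3 of 12 libraries correlated best with their own number), so the numbers were not taken as pairs. A replicate block left the counts of members at 7, 7, 1, 0 and 1 over the 5 comparisons, with 10113, 9812, 2233, 254 and 529 genes called. With it 0 genes were called of the RB, p27 and FOXO, and INK4 repressor lists where RBL2, FOXO1 and SKP2 (dBRD9-A in GFP cells) and ID1 (interaction) had been, 2 rather than 3 proliferation markers in GFP cells, and 0 cyclins and kinases in SMARCB1 cells. For SMARCB1 in DMSO the block called 1 rather than 2 genes of the p27 and FOXO list lower. With dBRD9-A in GFP cells it called 1 rather than 3 TGF-beta and SMAD genes higher, and 1 rather than 0 E2F targets. CDKN2B and CDKN1C in GFP cells rest on 12 to 43 counts per library, which limits what their comparisons can show.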

Other observations

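Neighbours of the inhibitor loci were listed as well. On chromosome 9, MTAP, which lies beside CDKN2A, had 61.9 CPM in GFP and 59.1 CPM in SMARCB1 cells in DMSO as group means (log2 fold change -0.07, SE 0.04, adjusted p 0.104 by edgeR), and CDKN2B-AS1 and DMRTA1 had too few counts to test. On chromosome 11, around CDKN1C, 6 of 7 genes were tested, and SMARCB1 in DMSO raised 3 and lowered 0, where 33.5% of all genes were higher. PHLDA2, an imprinted gene that restrains placental growth, went from 11 to 29 counts per library to 112 to 174 (log2 fold change 3.01, SE 0.24, adjusted p 5.43e-09), and SLC22A18 rose by 0.56 (SE 0.18). KCNQ1OT1, the antisense RNA of that domain, had 14.4 ± 2.04 and 13.6 ± 1 CPM (SD, n = 3). Of 7 TGF-beta and SMAD genes, which can act on CDKN2B, 6 were tested, 4 higher and 1 lower, beside 33.5% and 31.6% of all genes. TGFBR1 rose by 1.29 (SE 0.05) and SMAD3 was at -0.35 (SE 0.04). TGFBR2, a TGF-beta receptor, had at most 1 count per library and was too low to test. A part of TGF-beta in the rise of CDKN2B was not tested.

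The genes whose pattern over the 12 libraries was closest to each member were taken from 12578 genes with a mean of at least 50 counts, by the root mean square difference of centred log2 CPM. They were WWC1 (0.048) and TAF4B (0.0512) for CDKN1A, GNE (0.0347) and ENSG00000184779.8, left without a symbol here (0.0326), for CDKN1B, and DNM3 (0.176) and ENSG00000183900.4 (0.164) for CDKN1C. For the INK4 genes they were GDPD5 (0.156) and RAB6B (0.159) for CDKN2A, C2orf72 (0.147) and ITGB5 (0.183) for CDKN2B, RHOBTB2 (0.0964) and SYDE2 (0.115) for CDKN2C, and SLC2A8 (0.0777) and GINM1 (0.0838) for CDKN2D.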
